A study of Homo sapiens with 6 samples.

Results

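N6-methyladenine (6mA) regions that were called in both control libraries and in neither N6AMT1 knockdown library were examined in MDA-MB-453, a human breast cancer line. The cells received either a control siRNA or si-N6AMT1, a short interfering RNA against N6AMT1, at 10 nM for 48 h. Genomic DNA was sonicated and immunoprecipitated with a 6mA antibody, and there were 2 immunoprecipitated libraries in each group. The peaks of the 4 libraries were merged into 72537 regions wherever they overlapped by at least 1 bp. The members were chosen by the calls themselves: 1904 of these regions, or 2.62%, held a peak of both control libraries and no peak of either si-N6AMT1 library. For comparison, 4251 regions (5.86%) were called in both si-N6AMT1 libraries and in neither control library, and 12132 (16.7%) in all 4.

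6mA carries a methyl group on the amino nitrogen of adenine. It is abundant in bacterial DNA and rare in mammalian nuclear DNA, where N6AMT1 has been described as a methyltransferase and ALKBH1 as a demethylase for it. An antibody peak marks a stretch of DNA whose fragments were recovered more often than the local background. By itself it does not show that those fragments were modified, nor which adenine would carry the mark. A missing peak means only that a region did not pass the threshold of the caller, a p-value of 1e-05 in each library taken alone. Because calls and not signal were compared, a member can hold si-N6AMT1 fragments just below that threshold.

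The lists held 30451 to 40844 peaks. The background recovered from them gave a relative depth of 1.32 for control replicate 2, 1.38 for si-N6AMT1 replicate 1 and 1.5 for si-N6AMT1 replicate 2, with control replicate 1 set to 1. Both libraries that missed the members were thus deeper than both that called them, and the part of depth in the calls was not tested. No measure of N6AMT1 itself was used here. The study calls the replicates biological without naming separate cultures, so the spread between them may be partly technical.

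The DNA under the summits is shown first for 4 members, since repeats were more frequent at the summits than beside them. Each window is 200 bp long, is centred on the summit, and is given 5′ to 3′ on the plus strand of hg19. The windows were searched on both strands for 4 features. These were a CA repeat (6 or more copies of CA or TG in a row), an adenine run (8 or more A, or T on the other strand), a tract of 20 or more purines, or of pyrimidines, and the motif CAGGCTGG. Capitals mark CA repeats, with an added base where the repeat runs on by 1, and the purine or pyrimidine tracts. The first 3 windows belong to the members of rank 1, 3 and 4. They lie upstream of G0S2 (chr1:209847952-209848151), in intergenic sequence of chromosome 4 (chr4:174338101-174338300) and in an intron of KPNA1 (chr3:122171481-122171680). EDF1 (chr9:139760069-139760268, in the promoter window), of rank 75, is shown as a member with none of the 4 features. Of the 12 members of highest rank, those in SLC9A9 and TRIM66 also held none. Rank 2, in an intron of CEP120, held all 4 and is not shown. No window shown here holds an adenine run.
G0S2: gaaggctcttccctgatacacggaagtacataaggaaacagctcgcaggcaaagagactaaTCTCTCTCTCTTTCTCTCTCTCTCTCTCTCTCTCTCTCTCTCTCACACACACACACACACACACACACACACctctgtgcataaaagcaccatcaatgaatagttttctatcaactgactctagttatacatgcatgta
Chromosome 4: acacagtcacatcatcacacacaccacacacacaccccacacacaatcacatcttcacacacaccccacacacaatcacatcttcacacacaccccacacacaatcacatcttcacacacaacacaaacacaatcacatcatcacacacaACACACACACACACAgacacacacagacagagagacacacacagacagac
KPNA1: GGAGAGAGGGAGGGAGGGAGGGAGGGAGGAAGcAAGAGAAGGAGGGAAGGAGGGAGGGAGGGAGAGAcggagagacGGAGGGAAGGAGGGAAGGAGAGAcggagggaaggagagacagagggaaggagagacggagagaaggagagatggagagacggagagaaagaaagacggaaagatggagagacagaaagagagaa
EDF1: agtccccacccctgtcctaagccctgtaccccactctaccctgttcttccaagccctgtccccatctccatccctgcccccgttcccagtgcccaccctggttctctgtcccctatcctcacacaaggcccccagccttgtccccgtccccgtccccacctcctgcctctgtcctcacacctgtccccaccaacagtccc

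The G0S2 window holds a CT-rich tract of 44 bases that runs into a CA repeat of 28 bases. The chromosome 4 window is made almost wholly of interrupted CACA units, of which the longest uninterrupted CA repeat had 14 bases. The KPNA1 window is an array of purine tracts, of which the longest had 34 bases. The EDF1 window has a GC content of 64.5% and none of the features.

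Members were weak to moderate peaks. The fold enrichment given by the caller is the fragment pileup at the summit over the local background, with 1 added to each. Its median over members was 6.99 in control replicate 1 (range 3.16 to 16.1) and 6.66 in control replicate 2 (range 3.33 to 14.4). The median pileup was 15 and 17 fragments, against 21 and 22 fragments in the same 2 libraries for regions called in all 4. At the lowest background of each list, 8 and 9 fragments were enough for a call. Double that number in both libraries, 16 and 18 fragments, was reached by 586 members (30.8%) and by 69.4% of the regions called in all 4. These values come from the calls that chose the members and are given as a description.

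The rule asks for peaks of both control libraries in 1 merged region, so a shared position follows in part from it. The summits of the 2 control libraries lay a median of 44 bp apart. They were within 100 bp of each other in 1434 members (75.3%), against 71.0% of the regions called in all 4. Those regions were wider, with a median of 714 bp against 486 bp for members, which leaves their summits more room to differ. The 2 peaks shared at least 50% of the shorter one in 1868 members, and under 10% in 3. Fold enrichment was less alike than position. Across the 1904 members it had a Spearman rho of 0.463 between the control libraries, against 0.654 across the regions called in all 4, where the range of folds was wider. Regions are not independent replicates, and both libraries share the cell line and the genome.

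**Figure D1:**
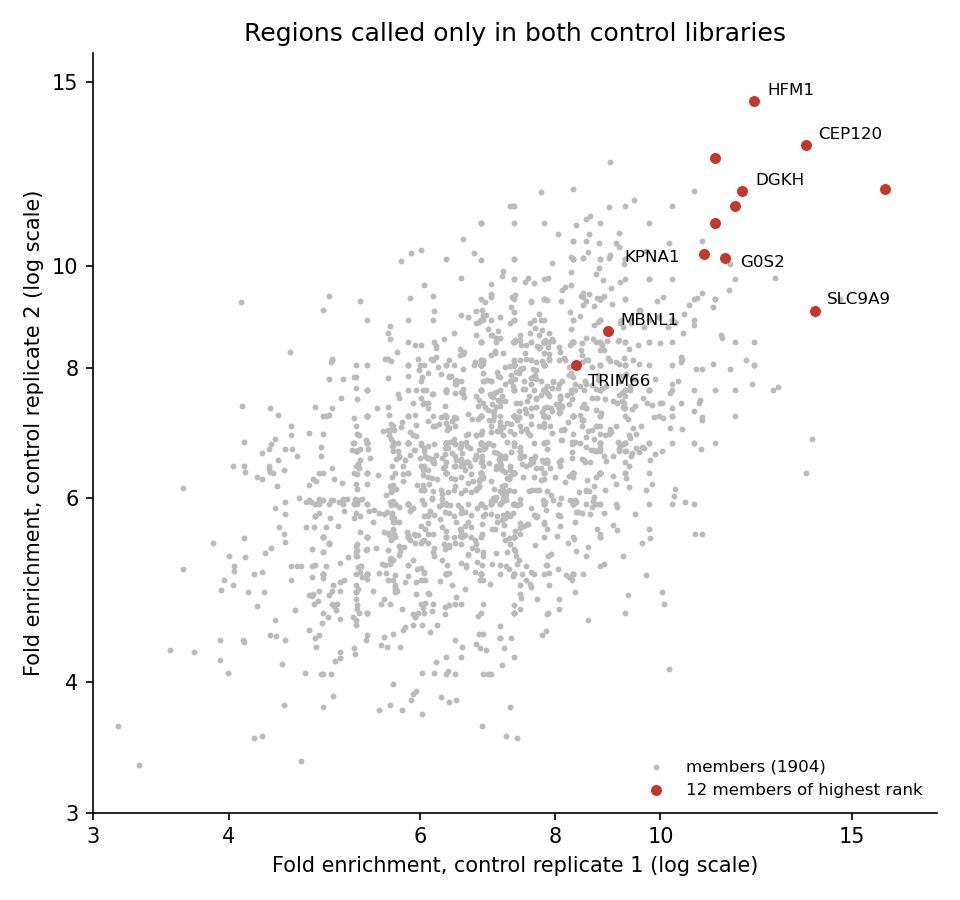
Fold enrichment of the 1904 members in control replicate 1 (horizontal axis) and control replicate 2 (vertical axis), both on log scales. Each grey point is 1 member, the 12 members of highest rank are red, and red points without a name are intergenic. The cloud is centred near the medians of 6.99 and 6.66, and 14 members reached a fold of 10 in both libraries.

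Regions called in both control libraries were next divided into 5 classes of equal size by strength, taken as the lower of their percentiles of −log10 q in the 2 control lists. Over all 17709 such regions, 10.8% were members. The share was 20.4% (95% interval 19.2% to 21.8%) in the weakest class, 15.7% and 11.4% in the next ones, then 5.45%, and 0.706% (95% interval 0.479% to 1.04%) in the strongest, which held 25 members. The strongest class was called in both si-N6AMT1 libraries in 94.8% of cases. The mirror image fell in the same direction. Of the regions called in both si-N6AMT1 libraries, 19.2% had no control peak, from 36.6% in the weakest class to 1.85% in the strongest. In all 5 classes the share without a peak was higher for si-N6AMT1 regions, whose lists are longer. When each list was cut to the same number of peaks, 15.1% of control regions (95% interval 14.6% to 15.7%) and 14.97% of si-N6AMT1 regions (95% interval 14.4% to 15.5%) had no peak in the other group. Intervals here cover counting error only.

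**Figure D2:**
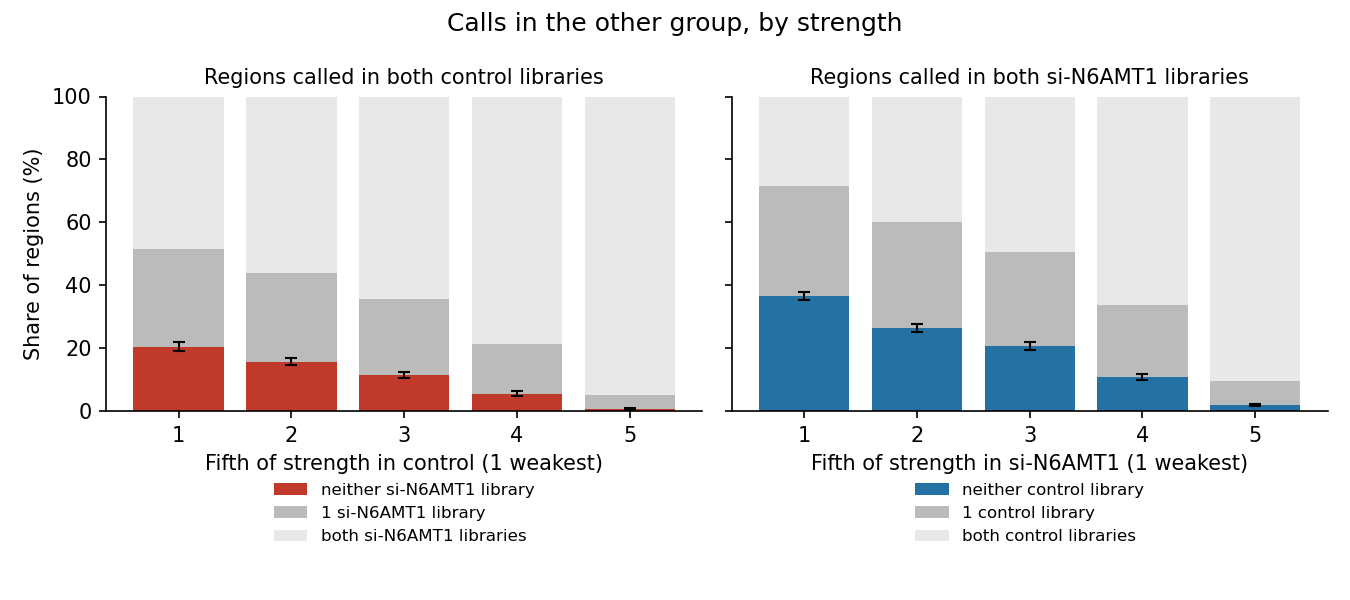
Share of regions (%) called in both control libraries (left) or both si-N6AMT1 libraries (right) that had a peak in neither, 1 or both libraries of the other group, by class of strength from 1 (weakest) to 5 (strongest). Bars at the bottom are regions with no peak in the other group, with 95% Wilson intervals. They fall from 20.4% to 0.706% on the left and from 36.6% to 1.85% on the right.

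At the edge of the rule, the 5 members weakest in one control library had a −log10 p there of 5.02 to 5.19, just past the threshold. Just outside the rule were 5 regions kept out by a single si-N6AMT1 peak with a −log10 p of 5.02 to 5.21. By position, the 5 members nearest to a si-N6AMT1 peak were 38 to 148 bp from it, and the 5 regions that only just failed had a si-N6AMT1 peak that overlapped a control peak by 5 to 114 bp. Over all members, the nearest si-N6AMT1 peak lay a median of 10.8 kb away, within 500 bp for 63 members (3.31%) and within 5000 bp for 598 (31.4%). For regions called only in si-N6AMT1, the nearest control peak lay a median of 14.6 kb away and within 5000 bp in 25.3%; the control lists are shorter.

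A measure that the rule did not use is the share of each library's remaining peaks that lay within 10000 bp of a member. Control had 2.35% and 2.21%, and si-N6AMT1 had 2.28% and 2.25%. The group means were 2.28 ± 0.102% and 2.26 ± 0.0181% (SD, n = 2 each), and the groups overlapped. The difference of 0.0189 percentage points was smaller than the spread between the control replicates (exact two-sided permutation test, p = 1, where 0.33 is the smallest value that 2 libraries against 2 allow). Without control replicate 1 its sign turned, to -0.0536. The members were scattered among themselves. The nearest other member lay a median of 364 kb away, and 54 members (2.84%) had one within 10 kb.

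The member of highest rank lay 705 bp upstream of the start of G0S2, which encodes an inhibitor of adipose triglyceride lipase, and inside the antisense gene HSD11B1-AS1. It had 33 and 35 fragments in the control libraries, a fold enrichment of 11.5 and 10.2, and its nearest si-N6AMT1 peak was 4554 bp away. The intronic member of CEP120, a centriole protein, had 27 and 30 fragments over backgrounds of 1.06 and 1.37. The intergenic member of chromosome 4, 10.7 kb from SCRG1, had the highest fold of all members in control replicate 1, 16.1 with 32 fragments, and 11.8 with 27 fragments in replicate 2. The KPNA1 member, in a gene for an importin alpha of nuclear import, had 31 and 35 fragments and a fold of 10.96 and 10.3. In these 4 members the control libraries differed by at most 5 fragments.

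Among the next 8 members, some differed more between the libraries and some did not. The member in an intron of MBNL1, a splicing regulator, had 36 and 52 fragments but a fold of only 8.95 and 8.67, since its backgrounds of 3.14 and 5.11 were the highest of the 12. In SLC9A9, an endosomal sodium/proton exchanger, the member had 41 and 32 fragments and a fold of 13.9 and 9.07. In DGKH, a diacylglycerol kinase, it had 25 and 29 fragments and a fold of 11.9 and 11.8, and its nearest si-N6AMT1 peak was 152267 bp away. HFM1, a helicase of meiotic recombination, held the member with the highest fold in control replicate 2, 14.4 with 33 fragments, and 12.2 with 24 fragments in replicate 1. It was also the member of the 12 that lay nearest to a si-N6AMT1 peak, at 2354 bp. TRIM66, a chromatin-associated TRIM protein, had 32 and 34 fragments and a fold of 8.35 and 8.05, the lowest in both libraries among the 12. The remaining 3 were intergenic on chromosomes 5, 4 and 8, at 1241, 587 and 61.3 kb from the nearest protein-coding gene, with a fold between 11 and 12.7 in either library.

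Introns held 1099 member summits (57.7%, 95% interval 55.5% to 59.9%) and intergenic sequence 751 (39.4%, 37.3% to 41.7%). These elements make up 55.1% and 38.6% of the assembled genome. Promoter windows, 1000 bp to each side of a start site, held 39 members (2.05%, 1.502% to 2.79%), against 3.17% of the genome. Exons held 15 (0.788%, 0.478% to 1.30%), against 3.13%. Regions called only in si-N6AMT1 had 1.95% in promoters and 0.635% in exons, and all merged regions 2.07% and 0.751%, within the intervals of the members. Distance to genes differed more. Of the member summits, 42.9% (40.7% to 45.1%) lay more than 100 kb from the start of any protein-coding transcript, against 39.4% of all regions and 37.3% (35.8% to 38.7%) of regions called only in si-N6AMT1. Lists cut to equal size gave 42.6% and 38.1%. Regions called in 1 library had 39.9% and 41.8% for the control libraries, against 36.6% and 39.8% for si-N6AMT1, so that the lowest control value and the highest si-N6AMT1 value nearly met.

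Of the 39 promoter members, 22 lay at protein-coding genes and 17 at long noncoding RNA genes alone. Among the 22, the highest ranking after G0S2 were at EDF1 and RPL7. EDF1, a transcriptional coactivator, had 22 and 23 fragments and a fold of 9.15 and 8.06, with the summit 549 bp downstream of its start. RPL7, a protein of the large ribosomal subunit, had 20 and 25 fragments and a fold of 9.001 and 9.54. At IL11, a cytokine, the summit lay 486 bp upstream of the start, with 21 and 17 fragments. CLDN23, a claudin of tight junctions, had 18 and 17 fragments, and SHOC1, a meiotic crossover protein, 17 and 18. ZYG11B, which selects substrates for a ubiquitin ligase, had a fold of 9.97 and 7.19, and HOMEZ, a homeobox protein, 6.85 and 5.67 with the summit 88 bp from its start. None of the 4 features was in all 8 windows. A purine tract was the most frequent, at G0S2, IL11, CLDN23, ZYG11B and HOMEZ. The windows at G0S2 and IL11 also held a CA repeat, and those at EDF1 and SHOC1 held none of the 4 features.

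Exonic members were few and mostly outside coding sequence. Only 2 of the 15 summits lay in coding sequence, those in ENAH, an actin regulator of the cell edge, and SLC24A1, a sodium, calcium and potassium exchanger of photoreceptors. The ENAH member had 23 and 28 fragments and a fold of 6.07 and 6.58. A further 8 lay in untranslated or noncoding exons of protein-coding genes, and 5 in exons of long noncoding RNA genes. The highest ranking of the 15 lay in a noncoding exon that overlaps an intron of STK3, a kinase of the Hippo pathway, with 20 and 22 fragments and a fold of 9.16 and 8.50. The next lay in GASK1B-AS1, within TMEM144, with 16 and 19 fragments; TMEM144 held 2 regions in all, and both were members. CREB3L1, a transcription factor anchored in the endoplasmic reticulum, had 18 and 20 fragments, and NFAT5, which answers osmotic stress, 22 and 18. At ZSWIM9 there were 15 and 23 fragments and at GNL1, a GTP-binding protein, 15 and 18. At LINC02909 there were 16 and 21.

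In all, 796 of 20175 protein-coding genes (3.95%) held a member between their start and end, and 705 of them held 1. These genes were long, with a median of 168 kb against 27.2 kb for all protein-coding genes. A longer gene body can hold more regions of any class, and genes that hold any merged region were not set beside these. Only 14 genes held 3 or more. RIMS2, which organises synaptic vesicle release, held 5 among its 49 regions, with pileups of 15 to 26 fragments in control replicate 1 and 17 to 30 in replicate 2. SEMA3E, RABGAP1L, CTNNA3 and the gene ENSG00000239920 held 4 each, among 13, 44, 72 and 24 regions. A further 9 genes held 3, among them STRN3, RYK, RANBP17, KIAA0825, SPIDR, CDH18, CSMD3 and CNTNAP2. These 9 genes had from 9 regions (STRN3) to 66 (CDH18), and CNTNAP2 had 53. Over all merged regions, 2.62% were members, and these 14 genes were chosen by their count of members. All members in the 14 genes were intronic. Per length, STRN3 came first among these 14 with 22.6 members per Mb, then RYK with 16.2, SEMA3E with 14.0, ENSG00000239920 with 9.43 and RANBP17 with 6.85. The genome had 0.666 members per Mb.

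SEMA3E encodes a secreted semaphorin that acts through plexin-D1. It held 13 regions, of which 4 were members, 0 were called only in both si-N6AMT1 libraries and 0 in all 4. The control libraries called 8 and 9 of the 13 regions and the si-N6AMT1 libraries 3 and 3. The strongest of its members had 22 and 21 fragments and a fold of 10.5 and 8.63, and the other 3 had 14 to 18 fragments in control replicate 1 and 17 to 23 in replicate 2. RANBP17, a nuclear transport receptor, showed a like order, with 5 and 7 of its 10 regions called by the control libraries, against 3 and 2 by si-N6AMT1. RYK, a Wnt receptor with an inactive kinase domain, had 8 and 10 of 14 regions called by the control libraries, against 6 and 7. In STRN3, a striatin of a phosphatase complex, the control libraries called 4 and 4 of the 9 regions and the si-N6AMT1 libraries 4 and 3, so the number of calls was nearly equal while the regions differed. These genes were chosen by their count of members, so the excess in control follows in part from that choice.

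**Figure D3:**
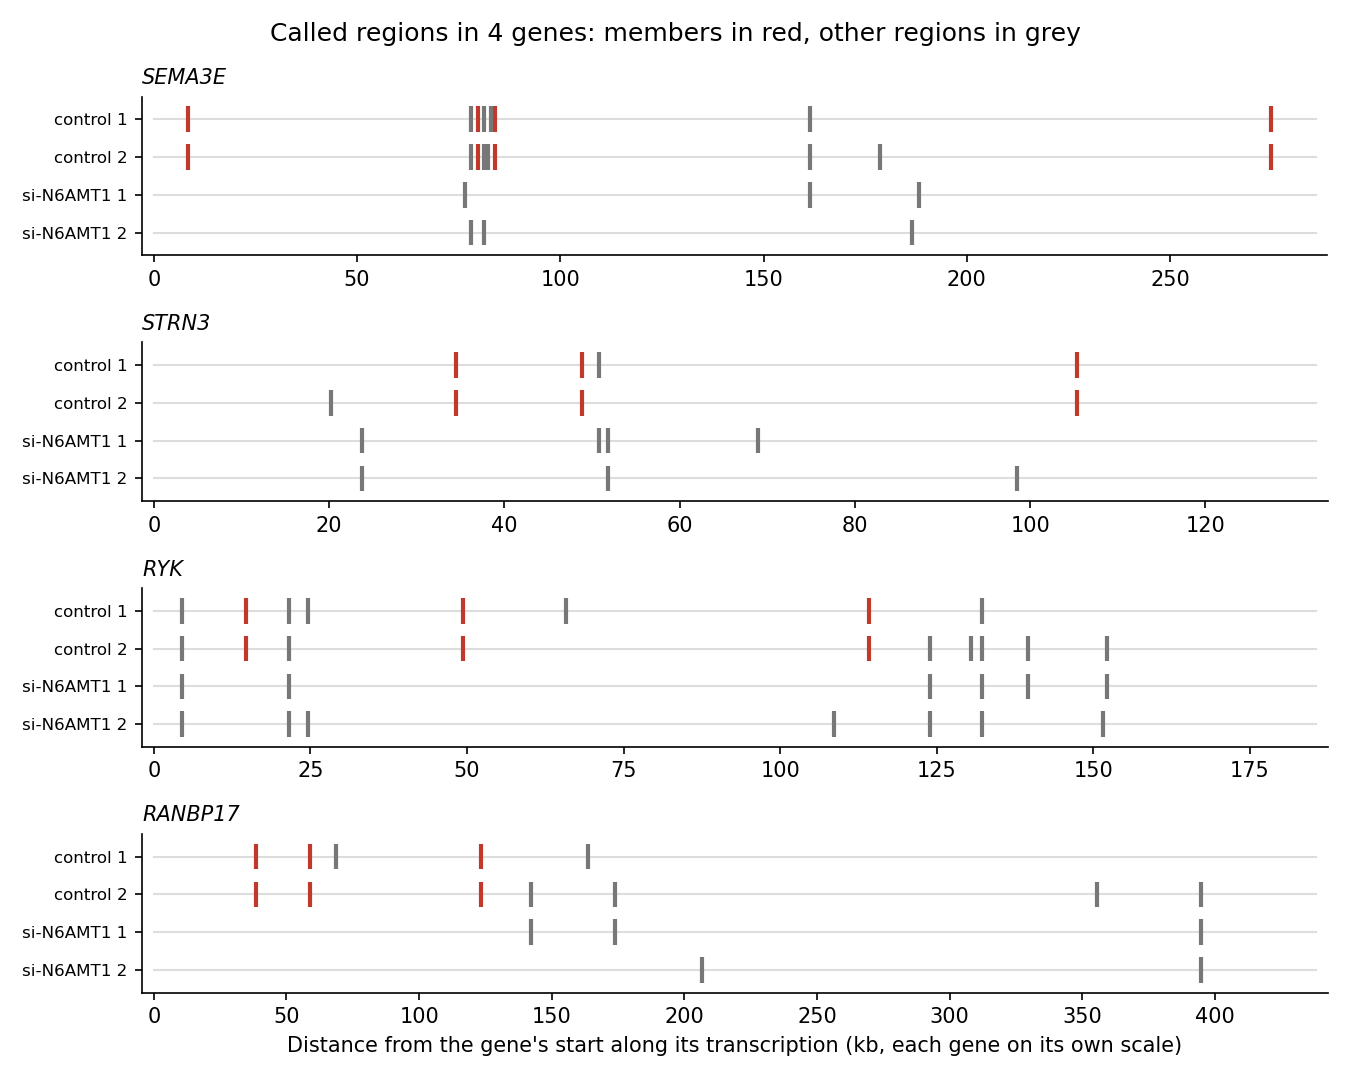
Called regions in SEMA3E, STRN3, RYK and RANBP17 by distance from the gene's start along its transcription (kb, horizontal axis), with 1 row for each library. Red marks are members and grey marks other regions. Members appear in both control rows alone, and SEMA3E shows a cluster of red and grey marks between 76.5 and 84.0 kb, where 2 of its 4 members lay.

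Genes were also taken from lists on the biology of breast cancer and of 6mA. For each list, the share of its merged regions that were members can be set beside the 2.62% of all regions. These shares rest on few members, 18 at most, and no interval was computed for them. No list is therefore said to lie above or below that value. The DNA repair list had members at 5 of 36 genes, 6 of its 158 regions (3.797%). FANCM, a DNA translocase of the Fanconi anaemia pathway, held 2 of them, which made up 2 of its 4 regions. The first was in an exon, with 15 and 18 fragments, and the other lay in an intron, with 13 and 16. FANCC, of the same pathway, had the strongest, with 21 and 22 fragments and a fold of 9.35 and 8.34. PARP1, the sensor of strand breaks, had 18 and 18 fragments at its member, 1 of only 2 regions in the gene. PRKDC, the kinase of end joining, had 14 and 19.

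Steroid receptors and luminal factors had members at 5 of 26 genes, 5 of 116 regions (4.31%). The coactivator NCOA3 had 20 and 28 fragments, and TRPS1, a GATA-type repressor of the luminal lineage, 21 and 20. The histone demethylase KDM4B had 14 and 11 fragments. All 5 were intronic. In the ErbB list, 1 of 32 genes had a member, 1 of 136 regions (0.735%). In the MYC network, 1 of 13 genes had a member, 1 of 18 regions (5.56%). It lay in MGA, a partner of MAX, with 10 and 14 fragments. No member lay at any of 22 cell cycle inhibitors, which held 39 regions, or at any of 6 genes of 6mA enzymes, which held 3. At a background of 2.62%, few members would fall in so few regions. Of the 39 regions at cell cycle inhibitors, 7 were called only in both si-N6AMT1 libraries. Over all merged regions that share was 5.86%, and no interval was computed for the 7. The study reports that signal at cell cycle inhibitor genes fell after the knockdown. Calls and not signal were compared here, so that fall was not tested.

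The cell adhesion list had most, with 18 members at 11 of 50 genes, or 3.05% of its 591 regions. Its genes are the longest, with a median of 264 kb, and it had 0.707 members per Mb against 0.640 for all protein-coding genes with 5000 bp to each side. CTNNA3, an alpha-catenin, held 4 members of 72 regions, with 11 to 18 fragments in control replicate 1 and 12 to 17 in replicate 2. CDH18, a type II cadherin, and CNTNAP2, of the neurexin family, held 3 each. The strongest of the list was in CNTN1, a contactin, with 21 and 30 fragments and a fold of 9.10 and 10.5. CDH8, CDH9, CDH12, CDH13, CNTN5 and NRXN3 held 1 each, all intronic, with a fold between 3.995 and 8.89 in either library. Per region the list was close to the 2.63% of all protein-coding genes.

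By chromosome, members made up between 1.41% and 3.16% of the merged regions of an autosome. Chromosome 14 had the highest share, 100 of 3163 regions (3.16%, 95% interval 2.61% to 3.83%), and chromosome 5 the next, 3.01% (2.59% to 3.49%). The lowest was chromosome 19, with 19 of 1343 regions (1.41%, 0.908% to 2.20%), followed by chromosomes 17 (1.75%) and 16 (1.77%). Their intervals stayed below 2.62%, with upper ends of 2.20%, 2.37% and 2.58%. On chromosome 19, 27.3% of regions were called in all 4 libraries, more than the 16.7% of all regions, and on chromosome 17, 16.8% were. Over the 22 autosomes, the share of members had a Spearman rho of -0.492 with GC content, given as a description. Chromosome X had 68 members of 2581 regions (2.63%), and the mitochondrial genome 0 of 5 regions, all of which were called in all 4 libraries. By count, the stretch of at most 500 kb with most members apart from RIMS2 lay on chromosome 7, from 122741911 to 123216333. It held 5 members among 20 regions, 0 regions called only in si-N6AMT1, and the genes SLC13A1, IQUB, NDUFA5 and ASB15.

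Repeats were more frequent at the members' summits than in their flanks, as they were in the other classes of regions. A CA repeat lay in 201 of the 1904 windows (10.6%, 95% interval 9.26% to 12.02%), against 0.525% of windows 1000 bp to each side. It was found in 4.66% (4.06% to 5.33%) of regions called only in si-N6AMT1, 8.26% (7.79% to 8.77%) of those called in all 4, and 7.22% of all regions. With lists of equal size, members (8.98%) and regions called in all 4 (8.82%) no longer differed beyond counting error, while regions called only in si-N6AMT1 had 5.69%. The median fold of the regions called only in si-N6AMT1, 6.62 and 6.33 in their own libraries, was close to that of the members. When present, the repeat was also long, with a median of 28 bp in members, 24 bp in regions called only in si-N6AMT1 and 14 bp in regions called in all 4. Members with a CA repeat were stronger, with a median fold of 7.85 and 7.19 against 6.87 and 6.58 in members without it. So were members with a purine tract, at 7.42 and 6.96 against 6.84 and 6.50. Greater strength was not particular to members: of 1553 regions with a CA repeat that both control libraries called, 955 lay above the median strength.

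An adenine run lay in 738 member windows (38.8%, 36.6% to 41.0%), against 12.4% of flanking windows. All regions had 38.9%, within the interval of the members. Here members and regions called only in si-N6AMT1 were close, at 41.1% (39.6% to 42.6%) for the latter, and both were above the 23.7% of regions called in all 4. In the lists as deposited, the median run was 12, 13 and 11 bases long in these 3 classes. A purine tract was found in 682 members (35.8%, 33.7% to 38.0%), in 41.6% (40.1% to 43.1%) of regions called only in si-N6AMT1 and in 36.7% of those called in all 4, against 4.39% beside the members. All regions had 38.3%, just above the interval of the members. The median length of the tract was 30 bp in members and 33 bp in regions called only in si-N6AMT1, but 59 bp in regions called in all 4. At least 1 of the 3 repeats lay in 1188 members (62.4%), and 716 had none. That share was not set beside other regions. An adenine run and a purine tract were found together in 335 members, a CA repeat and an adenine run in 64.

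CAGGCTGG, a word that occurs in Alu repeats, was in 169 member windows (8.88%, 7.68% to 10.2%) and in 7.30% of the flanks. It was in 13.3% (12.3% to 14.4%) of regions called only in si-N6AMT1, 3.92% of those called in all 4 and 11.9% of all regions. GATC, the site of bacterial Dam methylation, was in 39.9% of member windows and 39.4% of their flanks, so summits and flanks did not differ by more than counting error. In regions called in all 4 it was in 23.9% at summits and 39.2% beside them. At least 1 CpG was found in 58.0% of member windows and 66.8% of flanks, and the GC content of members was 36.9% at summits and 39.2% in the flanks.

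**Figure D4:**
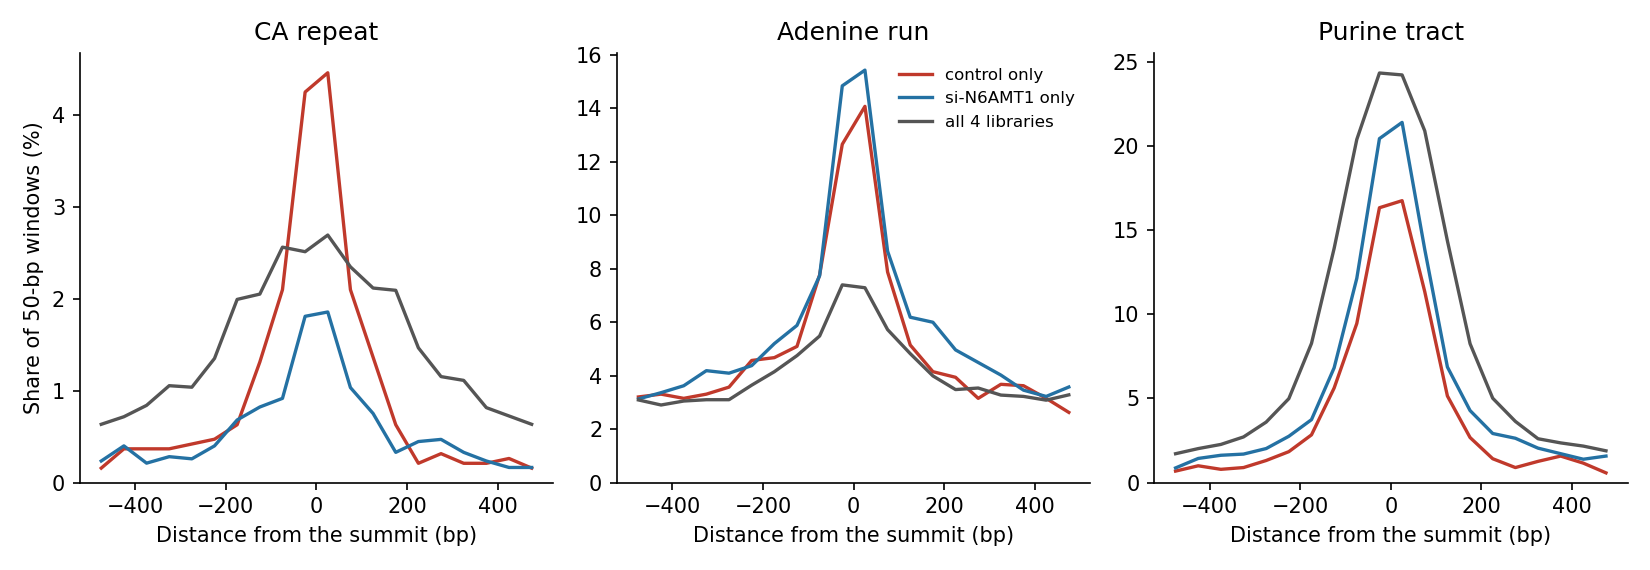
Share of 50-bp windows (%, vertical axes) that hold a whole CA repeat, adenine run or purine tract, by distance from the summit (bp), for regions called only in control (the members), in si-N6AMT1 alone, and in all 4 libraries. At the summit of members, the CA repeat reached 4.46%, the adenine run 14.1% and the purine tract 16.8%, and by 475 bp downstream they were at 0.158%, 2.63% and 0.578%.

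The same contrast was then read from the other side: of all regions with a feature that both libraries of a group called, how many had no peak in the other group. With a CA repeat, 201 of 1553 control regions (12.9%, 11.4% to 14.7%) were members, against 10.5% (10.1% to 11.03%) without it. For si-N6AMT1 regions the order was the opposite, 13.1% (11.4% to 14.8%) with a CA repeat and 19.7% (19.1% to 20.2%) without. The order was the same on each side of the median strength. Among the stronger control regions, 8.06% (6.50% to 9.96%) with a CA repeat were members against 4.13% without, and among the weaker ones 20.7% against 16.7%. For si-N6AMT1, the stronger regions had 7.25% and 9.11%, with overlapping intervals, and the weaker ones 23.2% and 29.8%. With an adenine run, by contrast, more regions went without a peak in the other group on both sides, 14.7% against 9.18% for control regions and 25.8% against 16.3% for si-N6AMT1 regions. CAGGCTGG also went with more such regions on both sides, 18.5% (16.1% to 21.2%) against 10.3% for control and 37.2% against 17.9% for si-N6AMT1. The 18.5% was the highest control share of the 6 features. GATC had 15.4% against 8.97% and 25.8% against 16.4%, and CpG 11.4% against 9.95% and 20.8% against 17.3%. For the purine tract the control intervals overlapped, and si-N6AMT1 regions had 20.4% with it and 18.5% without. These shares use the same calls as the rule and carry no test.

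Regions called in 1 library alone are not members, and they gave the feature shares once for each library. A CA repeat was in 10.2% of the regions that only control replicate 1 called (95% interval 9.44% to 10.98%) and 8.93% (8.31% to 9.60%) for control replicate 2. It was in 6.17% (5.72% to 6.64%) for si-N6AMT1 replicate 1 and 5.24% (4.85% to 5.65%) for replicate 2. The means were 9.56 ± 0.884% in control and 5.70 ± 0.657% in si-N6AMT1 (SD, n = 2 each). The groups did not overlap, and the difference of 3.86 percentage points was larger than the spread between replicates. The exact two-sided permutation test gave p = 0.33, its smallest possible value here, so 0.05 cannot be reached. The shares fell in the order of recovered depth, whose part in the result was not tested. When the lists were cut to equal size, they were 9.38% and 8.87% for control, against 6.96% and 6.30%.

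The other 5 features were more frequent in the regions of single si-N6AMT1 libraries. Adenine runs were in 42.1% and 41.4% of windows for control, against 47.1% and 47.1%. Purine tracts were in 37.8% and 31.1% for control, against 43.6% and 38.8%, and here replicates of a group lay further apart than the nearest libraries of the 2 groups. CAGGCTGG was in 13.0% and 12.4% of control windows, against 18.5% and 17.3%. For these 3 the groups did not overlap when lists of equal size were used either, with adenine runs at 40.7% and 41.5% against 48.7% and 50.5%. GATC had 41.0% and 40.5% for control, against 44.5% and 43.2%, but with lists of equal size it had 42.2% and 40.4% against 41.7% and 40.2%, so that the groups overlapped. CpG had 62.6% and 62.9% for control, against 65.7% and 64.96%. For each of the 6 features, lists as deposited gave p = 0.33 in the exact permutation test, and 0.389 after Benjamini-Hochberg adjustment over the 7 measures compared. GC content overlapped between the groups, with 37.9% and 36.9% for control, against 38.3% and 37.7% (exact permutation test, p = 0.667, adjusted 0.667). Of the 6 features, the CA repeat alone was more frequent in control in the lists as deposited. With lists of equal size the mean for GATC was also higher in control, and GATC lay in 40.02% (38.1% to 41.9%) of the regions called only in both control libraries, against 34.9% (33.1% to 36.8%) for si-N6AMT1.

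**Figure D5:**
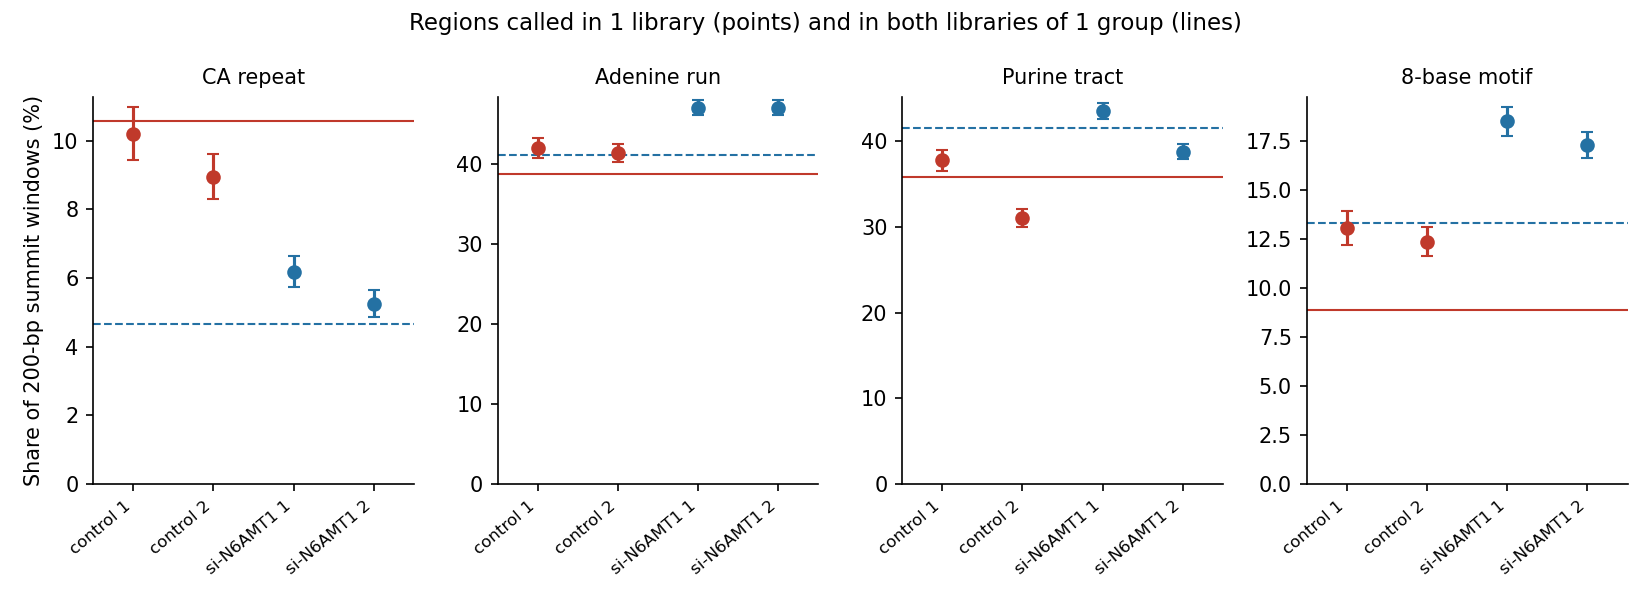
Share of 200-bp summit windows (%, vertical axes, from 0) with a CA repeat, an adenine run, a purine tract or the motif CAGGCTGG (the panel named 8-base motif) in regions called in a single library. Points are libraries, with 95% Wilson intervals. The solid red line gives the members and the dashed blue line the regions called only in both si-N6AMT1 libraries. In the first panel both control points, 10.2% and 8.93%, lie above both si-N6AMT1 points, 6.17% and 5.24%.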

How the data were processed

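6mA-IP-seq was carried out on MDA-MB-453 DNA. Per the study's methods and the submitters' processing notes, the authors trimmed the reads, aligned them to hg19 with Bowtie2 2.3.5, dropped duplicates by SAMtools 1.9, and ran MACS2 on each library at p 1e-05. Which input served each call is not given in the sources used here. The deposited score is 10 times the −log10 p, as a whole number. The deposited fold enrichment is a ratio of pileup to background with 1 added to each, and the −log10 p and −log10 q in the deposited lists belong to the summit. Pileup and background were recovered from fold and −log10 p, and pileups were whole numbers within 0.02 for 100% of peaks, except for 5 mitochondrial peaks in each list. Removal of duplicates lowers pileups where fragments share ends, and mapping is less certain in repeats; their effect on calls at repeats was not tested. Median pileups of 17 to 19 fragments limit the precision of each call.

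Libraries were grouped by the sample titles. Members, lists and tests were chosen with earlier results of these data known. Sequence came from GRCh37, which the peak coordinates fit, and genes from GENCODE v44 lifted to it (protein-coding and long noncoding RNA genes, basic transcripts). A summit was assigned to a promoter, then an exon, then a gene body (intron), and otherwise to intergenic sequence. The summit of a region is the mean of its libraries' summits. Named members were the 12 of highest rank (the lower percentile of −log10 q in the control lists), the 8 highest in promoters of protein-coding genes and in exons, genes with most members in number or per Mb (ties kept), listed genes with a member within 5000 bp, and those at the edge of the rule; some of these are not reported here. Intervals are 95% Wilson intervals. Group means were compared by permuting the 6 assignments of libraries to groups (exact test, two-sided). The comparison of regions of 1 library was added after the data were seen. Alternatives were lists cut to equal numbers of peaks (those of highest −log10 p), a minimum −log10 q of 5, other merging, overlap, promoter, window and reach rules, gene bodies without flanks, the main chromosomes alone, each library left out in turn, and a replicate block. The 5 mitochondrial regions were left out of windows and elements. The study's differential test of signal tracks was not run here. The scripts, tested on simulated peaks (100% of 2757 pileups and 420 regions recovered), used Python 3.11.15, numpy 2.4.6, pandas 2.3.3, scipy 1.17.1, pysam 0.24.0, matplotlib 3.10.9 and samtools 1.23.1.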

Additional observations from a re-analysis of the deposited data

How the results depend on the processing

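The count of 1904 members was 1834 with a −log10 q of at least 5, 2571 with equal numbers of peaks, 2149 with an overlap of 50% of each peak and 1870 when gaps of 500 bp were merged, all within 1.5 times. Of the 1904 members, 1724 (90.5%) overlapped a member under equal numbers and 1728 (90.8%) under the q minimum. Without one library the rule asks for less, and the count rose by construction, from 3722 without si-N6AMT1 replicate 1 to 9440 without control replicate 1. The share of control regions with no si-N6AMT1 peak was 15.1% with equal numbers and 21.0% to 21.3% without one si-N6AMT1 library. In 100-bp windows, which hold fewer features by construction, the shares in members were 8.09% for the CA repeat, 26.0% for the adenine run, 26.8% for the purine tract and 3.05% for CAGGCTGG. With equal numbers, the CA repeat was in 8.98% of members (95% interval 7.94% to 10.2%), 5.69% of regions called only in si-N6AMT1 and 8.82% of those called in all 4, so members were no longer above the last. The purine tract was then in 32.7%, 49.7% and 38.6% of these classes. The cause was not tested.

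The difference in the share of peaks near a member reversed to -0.0536 percentage points without control replicate 1, within a range of -0.0536 to 0.0913 without each library. It was 0.0845 within 50000 bp. The sample titles link same-numbered libraries by the number alone, and whether they were prepared together is not stated. The correlation of their deviations across regions was 0.0053, which cannot settle it. Under a replicate block the difference was 0.0189 (exact sign-flip test, p = 1). For regions of 1 library, the differences of 3.86 for the CA repeat and -5.35 percentage points for the adenine run kept their direction, at 3.23 to 4.48 and -5.68 to -5.02 without each library, 2.49 and -8.52 with equal numbers, and 3.86 and -5.35 with the replicate block (exact test, p = 0.5, the smallest for 2 pairs).

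Element shares stayed within their intervals under the other promoter window and equal numbers, and gene list counts did not change with gene bodies alone. The lists hold called peaks only, so the signal of the si-N6AMT1 libraries at members is not measured here.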
